A study of Rattus norvegicus with 68 samples.

Results

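Nuclear genes for the mitochondrial respiratory chain and ATP synthase were followed in the blood of rats given acetaminophen, a pain reliever that is toxic to the liver in overdose. The set was proposed with earlier results of these data known, and its members were then taken by gene symbol: Nduf genes of the a, b, c, s and v series for complex I, Sdha to Sdhd for complex II, Uqcr genes for complex III, Cox4 to Cox8 genes for complex IV, and Atp5 genes for complex V. Assembly factors named Ndufaf were left out, and Cyc1 was not analysed here. Of 9653 named genes on the arrays, 59 were members, read by 63 of 22075 probes. Complex I had 19 members, complex II 4, complex III 8, complex IV 13 and complex V 15. Assignment was by symbol, so Ndufa4, now counted as a subunit of complex IV, and its relative Ndufa4l2 were grouped in complex I.

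Acetaminophen (APAP) was given by oral gavage, split into 2 doses, in 0.5% ethyl cellulose to male F344/N rats, an inbred strain, aged 10 to 12 weeks. Blood RNA was taken 6, 12 or 24 h after totals of 150, 1500 or 2500 mg/kg, from 4 rats per dose and time, or 3 rats at 150 and at 1500 mg/kg at 12 h. Each of the 34 rats was compared with RNA of vehicle-treated animals of the same time on 2 arrays of opposite dye orientation, 68 in all. The number of arrays limits the precision of every value. The control of a time was 1 RNA sample shared by its 3 doses, described as a pool of 4 animals at 6 and 12 h and of 6 at 24 h, although the labels at 6 and 12 h carry a single rat number. Its own spread is outside every test against vehicle.

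In the respiratory chain, complexes I and II pass electrons from NADH and succinate to coenzyme Q, complex III passes them on to cytochrome c, and complex IV gives them to oxygen. Complexes I, III and IV pump protons across the inner mitochondrial membrane, and complex V, the ATP synthase, makes ATP from the proton gradient. Most subunits are encoded in the nucleus, and several core subunits of complexes I, III, IV and V in mitochondrial DNA. In blood, mature red cells hold no mitochondria, while lymphocytes, monocytes, platelets and reticulocytes do, and neutrophils hold few and rely mainly on glycolysis. A reactive metabolite of acetaminophen binds mitochondrial proteins in liver cells.

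Many nuclear genes of the chain are known in mammals to be driven by the factors NRF-1 and GABP, an ETS family protein. The 250 bases before the start of 6 members are shown because these genes recur among the results and hold the letters searched for these factors. They are RefSeq sequences of the rat assembly GRCr8, written 5′ to 3′ on the gene's strand, with the NRF-1 letters (GCGCA and GCGC with any 1 base between them) or CCGGAAG (the ETS core) on either strand in capitals.
Atp5po (chr11:44657484-44657733, minus strand): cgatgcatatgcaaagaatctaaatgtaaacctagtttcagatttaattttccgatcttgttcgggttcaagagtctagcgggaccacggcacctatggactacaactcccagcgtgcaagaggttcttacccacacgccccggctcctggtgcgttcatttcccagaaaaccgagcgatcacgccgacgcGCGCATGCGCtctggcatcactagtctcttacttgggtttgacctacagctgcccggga
Atp5mc2 (chr7:135678219-135678468, minus strand): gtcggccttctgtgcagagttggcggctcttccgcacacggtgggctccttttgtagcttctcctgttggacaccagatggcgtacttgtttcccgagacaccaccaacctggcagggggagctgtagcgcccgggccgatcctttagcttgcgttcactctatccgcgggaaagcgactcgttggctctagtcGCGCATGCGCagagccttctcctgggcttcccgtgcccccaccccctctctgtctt
Atp5me (chr14:1464610-1464859, plus strand): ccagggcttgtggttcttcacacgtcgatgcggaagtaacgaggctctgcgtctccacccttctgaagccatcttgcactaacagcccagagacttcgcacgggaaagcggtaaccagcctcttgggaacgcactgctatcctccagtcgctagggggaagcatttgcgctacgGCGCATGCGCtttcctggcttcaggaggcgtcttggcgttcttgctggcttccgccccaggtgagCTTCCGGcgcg
Atp5f1a (chr18:73567287-73567536, plus strand): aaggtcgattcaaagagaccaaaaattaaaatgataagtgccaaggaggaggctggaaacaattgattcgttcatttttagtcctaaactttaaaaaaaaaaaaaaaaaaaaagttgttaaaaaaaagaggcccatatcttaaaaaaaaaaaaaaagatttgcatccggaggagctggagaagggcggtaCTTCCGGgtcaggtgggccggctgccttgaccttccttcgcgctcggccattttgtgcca
Sdha (chr1:30764303-30764552, plus strand): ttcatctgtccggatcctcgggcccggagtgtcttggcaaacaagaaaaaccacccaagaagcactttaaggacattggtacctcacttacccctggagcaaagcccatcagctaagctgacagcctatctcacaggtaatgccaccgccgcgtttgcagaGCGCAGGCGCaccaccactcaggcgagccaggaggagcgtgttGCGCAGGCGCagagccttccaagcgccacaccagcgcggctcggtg
Sdhb (chr5:158547684-158547933, plus strand): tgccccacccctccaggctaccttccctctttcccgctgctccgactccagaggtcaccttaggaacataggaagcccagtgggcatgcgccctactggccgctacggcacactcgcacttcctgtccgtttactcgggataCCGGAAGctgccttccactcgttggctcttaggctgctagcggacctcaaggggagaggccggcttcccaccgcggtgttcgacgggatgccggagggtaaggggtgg
In Atp5po, Atp5mc2 and Atp5me both strands match at the same letters, since with T as the free base the run is its own reverse complement. Promoters were in the table for 52 of the 59 members. The NRF-1 letters were present in 15.4% of them and in 7.9% of all 7934 array genes with a promoter, and the self-complementary form in 5.8% and 1.4%. CCGGAAG was present in 28.8% of the members and 12.8% of the array genes. Among members, CCGGAAG was in 5 of the 24 with a promoter that fell at 2500 mg/kg and 24 h and in 10 of the other 28, and the NRF-1 letters were in 5 and 3. The Sp1 box GGGCGGG was present in 19.2% and 40.6%, the CCAAT box CCAAT in 32.7% and 35.2%, the TATA box TATAAA in 9.6% and 8.2%, and the YY1 core AANATGGCG in 1.9% and 2.2%. Atp5me was the 1 member with both the NRF-1 and the ETS letters, 22 had one or both, and 30 had neither, Atp5mc1 and Ndufa7 among them. These are matches of letters in a window, not sites of binding.

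All values below are log2 ratios of a treated rat to the vehicle control, averaged over the rat's 2 arrays, and errors are SDs between the rats within a group. Values below 0 are levels under those of the control. The deposited log10 ratios were taken as Cy5 over Cy3, the usual direction of such ratios. That direction is likely but is not stated with them, and the opposite reading would turn every sign. Ratios carry no level, so the genes' levels were not compared with each other and the blood label could not be checked against marker levels. "Fell" and "rose" are used for an adjusted p under 0.05 in limma's test, with Benjamini-Hochberg adjustment over all 9653 genes. The samples are bulk blood, in which fewer cells of a type and less RNA per cell cannot be told apart.

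A pair of rats stood apart on the arrays. In rat 3631 (2500 mg/kg, 24 h), the array with the treated sample on Cy5 correlated at -0.24 with the mean of all other arrays over named probes, against 0.36 to 0.90 for the other arrays. On it the median of the members was -0.73, and on the rat's other array -0.14. In rat 4137 (2500 mg/kg, 12 h), the 2 arrays correlated at 0.864 before turning by dye, and 5 of the 59 members had the same sign on both. For the 2500 mg/kg groups at 24 h and 12 h, counts and medians over members are given with and without these rats, as are the means of members that passed where leaving out the rat moved them by over 1.5 times.

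At each time the median over the members was lower after 1500 and after 2500 mg/kg than after 150 mg/kg. The median member had -0.049 at 150 mg/kg, -0.20 at 1500 mg/kg and -0.093 at 2500 mg/kg at 6 h. At 12 h the 3 medians were -0.069, -0.14 and -0.16, and at 24 h they were 0.0071, -0.14 and -0.22. The median of all 9653 genes stayed between -0.0071 and 0.0092 in these 9 groups. At 12 h the complex II median was -0.42 at 150 mg/kg, lower than the -0.13 at 1500 and -0.36 at 2500 mg/kg. After 150 mg/kg all rats were below 0 in 39% of members at 6 h and 40.7% at 12 h. Of all genes, 19.6% and 22.1% had all rats below 0 there. Of the 59 members, 40 passed the test in at least 1 group. Of these, 37 fell in at least 1 group, 4 rose in at least 1, and 1 did both. In a single group, between 0% and 26.5% of all genes passed. A count over the 9 groups was not made for all genes, so these numbers cannot be set against one.

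**Figure D1:**
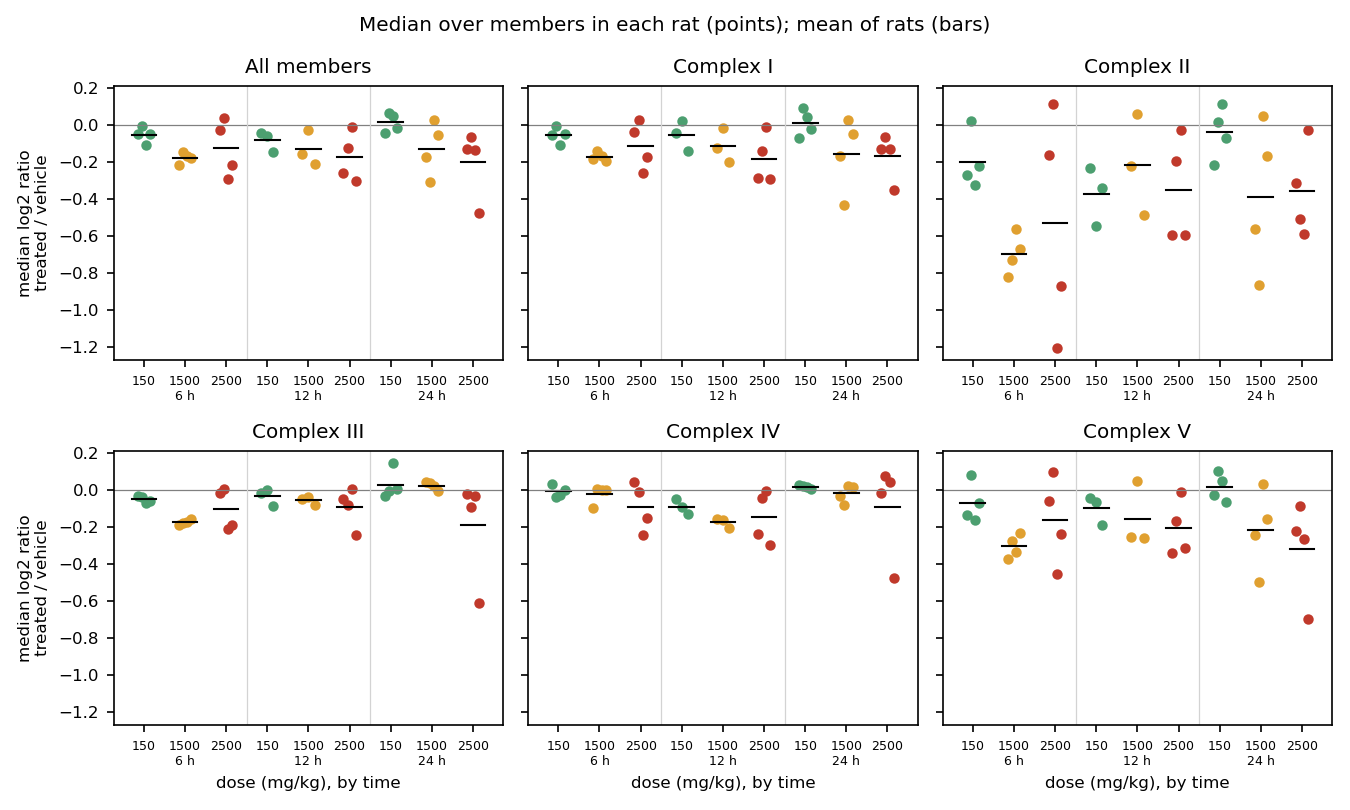
Median log2 ratio over the members in each rat (points) and the mean over the rats of a group (bars), for all 59 members and for each complex. The x axis gives the dose in mg/kg within 6, 12 and 24 h, and 0 is the vehicle control. Complex II lay between -0.82 and -0.56 in the 4 rats at 1500 mg/kg and 6 h, complex IV near 0 in most groups, and the lowest points of complexes III and IV, at -0.61 and -0.48, are rat 3631.

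At 24 h after 2500 mg/kg, 27 of the 59 members fell and 2 rose, the highest count of the 9 groups. The order of the groups rested on rat 3631: without it 12 fell and 4 rose here, against 29 and 2 at 6 h after 1500 mg/kg. With only the rats of the same time in the fit, 7 passed here and 33 there. Shares of all genes in these refits are not given here, so their counts describe the members only. With all rats in the fit, 26.5% of all genes passed at 24 h after 2500 mg/kg, 15.6% falling and 10.9% rising. Among the members 45.8% fell. The median member stood at 85.8% of the vehicle control, or at 117% were the ratios read the other way, and at -0.22 on the log2 scale, or -0.10 without rat 3631. ATP synthase made up the largest group, with 10 of 15 members falling and a median of -0.31, or -0.22 without that rat. Complex I as grouped by symbol had 9 of 19 members falling and both of the members that rose, Ndufa7 and Ndufa4l2. Its median was -0.17, or -0.10 without rat 3631. In complex II 1 of 4 members fell, and the median was -0.42, or -0.47 without it. In complex III 3 of 8 fell, with a median of -0.17 that came to -0.036 without rat 3631. In complex IV 4 of 13 fell, and the median turned from -0.039 to 0.061 without it. All 4 rats were below 0 in 21 of the 27 members that fell.

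**Figure D2:**
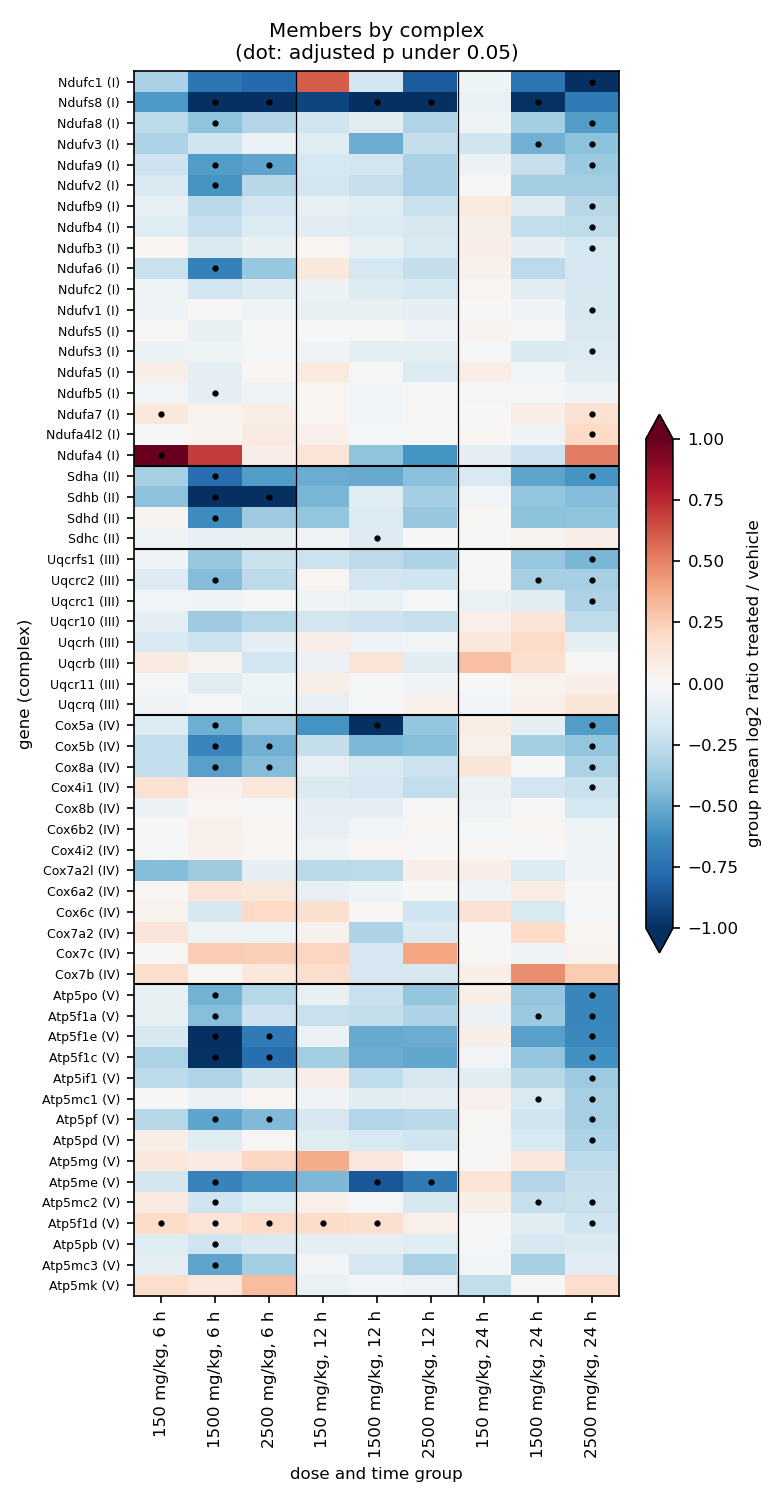
Group mean log2 ratio (colour, blue below and red above the vehicle control) of each of the 59 members, in rows by complex, over the 9 dose and time groups in columns. A black dot marks an adjusted p under 0.05. Dots gather in the columns for 1500 mg/kg at 6 h (23 members) and 2500 mg/kg at 24 h (29 members), and the column for 150 mg/kg at 24 h has none. Colours are limited to 1 in either direction.

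Within ATP synthase, Atp5mc1 encodes the membrane ring subunit c, as do Atp5mc2 and Atp5mc3. It read -0.29, -0.19, -0.21 and -0.64 in rats 3628, 3629, 3630 and 3631, a mean of -0.33 ± 0.21 (adjusted p = 1.42e-05, limma). All 4 rats lay below every rat of the 150 mg/kg group, which read 0.023, 0.066, 0.052 and 0.021. The 1500 mg/kg rats at 24 h, with -0.24, -0.18, -0.026 and -0.16, lay between the others in their mean and overlapped the 2500 mg/kg group.

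Atp5f1a, the alpha subunit of the catalytic head, read -0.36, -0.48, -0.72 and -1.04 in the same 4 rats. Its mean was -0.65 ± 0.30 (adjusted p = 1.76e-04, limma). The rats at 150 mg/kg read -0.24, -0.036, 0.14 and -0.085 and did not overlap with them. Atp5po, which encodes the OSCP subunit that joins the head to the outer stalk, read -0.47, -0.42, -0.48 and -1.22, with a mean of -0.65 ± 0.38 and adjusted p = 8.33e-04 (limma). In each of these genes rat 3631 was the lowest, and its 2 arrays read -0.23 and -1.86 for Atp5f1a and -0.24 and -2.20 for Atp5po.

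Atp5f1d, the delta subunit of the central stalk, read -0.17, -0.18, -0.096 and -0.34, a mean of -0.20 ± 0.10 (adjusted p = 7.89e-04, limma). The other parts of the central stalk, the gamma subunit Atp5f1c and the epsilon subunit Atp5f1e, fell to -0.61 ± 0.27 and -0.64 ± 0.39. In the outer stalk Atp5pf stood at -0.33 ± 0.27, or -0.22 ± 0.17 without rat 3631. Atp5pd read -0.15, 0.0026, -0.14 and -0.94, a mean of -0.31 ± 0.43 that came to -0.095 ± 0.084 without that rat. Atp5pb, at -0.14 ± 0.12, did not pass. Atp5if1, which encodes the inhibitor that blocks ATP hydrolysis by the synthase, fell to -0.36 ± 0.51, with -0.15, -0.0079, -0.17 and -1.12 in the 4 rats, and stood at -0.11 ± 0.087 without rat 3631. Atp5mc2 fell to -0.22 ± 0.17. Atp5mc3, at -0.11 ± 0.31, did not pass, nor did Atp5me, Atp5mg and Atp5mk, small subunits of the membrane part. Atp5me had -0.23 ± 0.36, or -0.079 ± 0.22 without rat 3631. Atp5mg read -0.0048, 0.25, 0.21 and -1.52 and turned from -0.27 ± 0.84 to 0.15 ± 0.14 without it, and Atp5mk, with -0.011, 1.02, -0.43 and 0.13, spread to both sides of 0.

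Of the members grouped in complex I by symbol, Ndufa7 and Ndufa4l2 rose. Ndufa7, an accessory subunit, rose in a narrow range of 0.079, 0.12, 0.18 and 0.23, a mean of 0.15 ± 0.066 (adjusted p = 3.32e-04, limma). Ndufa4l2, a relative of Ndufa4 known to be induced by low oxygen, had 0.035, 0.14, 0.11 and 0.50, a mean of 0.20 ± 0.21 (adjusted p = 0.00136, limma), and its highest value was that of rat 3631, without which its mean was 0.097 ± 0.056. Ndufv1, the flavin subunit that takes the electrons from NADH, fell to -0.16 ± 0.13 with -0.13, -0.098, -0.058 and -0.35 (adjusted p = 0.00168, limma), or -0.094 ± 0.034 without rat 3631.

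The lowest mean of any member in this group was that of Ndufc1, an accessory subunit of the membrane arm, at -1.11 ± 0.47. Ndufa8, an accessory subunit, fell to -0.56 ± 0.27, and Ndufa9, another, to -0.37 ± 0.44, where rat 3631 read 0.10 and rat 3629 read -0.76. Of the core subunits, Ndufs3 fell to -0.14 ± 0.11, or -0.092 ± 0.067 without rat 3631, while Ndufs8 at -0.70 ± 0.37 and Ndufv2 at -0.35 ± 0.28 did not pass. Ndufb3, Ndufb4, Ndufb9 and Ndufv3 completed the complex I members that fell, at -0.17, -0.25, -0.28 and -0.41. Without rat 3631 these means were -0.071 ± 0.050, -0.067 ± 0.11, -0.16 ± 0.18 and -0.35 ± 0.33.

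Complex II is also the succinate dehydrogenase of the TCA cycle. Its flavoprotein Sdha read -0.44, -0.99, -0.90 and -0.043 and fell to -0.59 ± 0.44 (adjusted p = 0.0169, limma). Its iron-sulfur subunit Sdhb read -0.28, -0.35, -0.58 and -0.52, all below 0, with a mean of -0.43 ± 0.14 that missed the threshold (adjusted p = 0.0856, limma). The membrane anchors Sdhd and Sdhc had -0.40 ± 0.30 and 0.069 ± 0.052 and did not pass.

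In complex III the core subunit Uqcrc2 read -0.47, -0.26, -0.36 and -0.25 and fell to -0.34 ± 0.10 (adjusted p = 0.00915, limma). The 2 probes of this gene disagreed in size, with means of -0.096 and -0.58. Uqcrc1, the other core subunit, read -0.029, -0.033, -0.011 and -1.16, so that its mean of -0.31 ± 0.57 (adjusted p = 0.0219, limma) rested on rat 3631, and there on 1 array at -2.17 against -0.16 on the other. Without that rat it stood at -0.025 ± 0.012. Uqcrfs1, the Rieske iron-sulfur protein, read -0.10, -0.25, -0.42 and -1.07, a mean of -0.46 ± 0.43 (adjusted p = 0.0235, limma), or -0.26 ± 0.16 without rat 3631. The small subunits Uqcrb, Uqcrh, Uqcrq, Uqcr10 and Uqcr11 did not pass, with means from -0.25 to 0.12, and the sign of all 5 turned without rat 3631.

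In complex IV, Cox5a, Cox5b, Cox8a and Cox4i1, which encode nuclear subunits around the catalytic core, fell. Cox5a read -0.12, -0.53, -0.80 and -0.77, a mean of -0.56 ± 0.31 (adjusted p = 0.0105, limma). Cox5b read -0.22, -0.27, -0.55 and -0.56, a mean of -0.40 ± 0.18 (adjusted p = 0.0286, limma). Cox8a read -0.29, -0.058, -0.17 and -0.74, a mean of -0.31 ± 0.30 (adjusted p = 0.0176, limma), or -0.17 ± 0.11 without rat 3631. All 4 rats were below 0 in these 3 genes. Cox4i1 stood at -0.23 ± 0.23, or -0.13 ± 0.16 without rat 3631. Cox7b, Cox7c, Cox7a2, Cox7a2l and Cox6c did not pass, with means from -0.037 to 0.25, and those of Cox7a2l and Cox6c turned above 0 without that rat. Cox7b, the highest of them, read 0.33, 0.95, 0.62 and -0.89. Its mean came to 0.63 ± 0.31 without rat 3631.

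Without rat 3631, 16 of the 59 members passed at 2500 mg/kg and 24 h, among them 14 of the 29 above. With that rat entered by its other array alone, 17 passed. All 4 complex IV members lost the test either way, as did Uqcrc1 and Uqcrfs1. Atp5mc1, Atp5f1a, Atp5f1d, Atp5po and Ndufa7 passed under all 44 alternative settings. With standard errors widened for the control pool of 6 animals, 8 members passed, these 5 and Ndufa4l2, Ndufa8 and Ndufv1. Ndufv3 was the 1 called member whose dye orientations differed in sign, with means of 0.34 and -1.16.

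**Figure D3:**
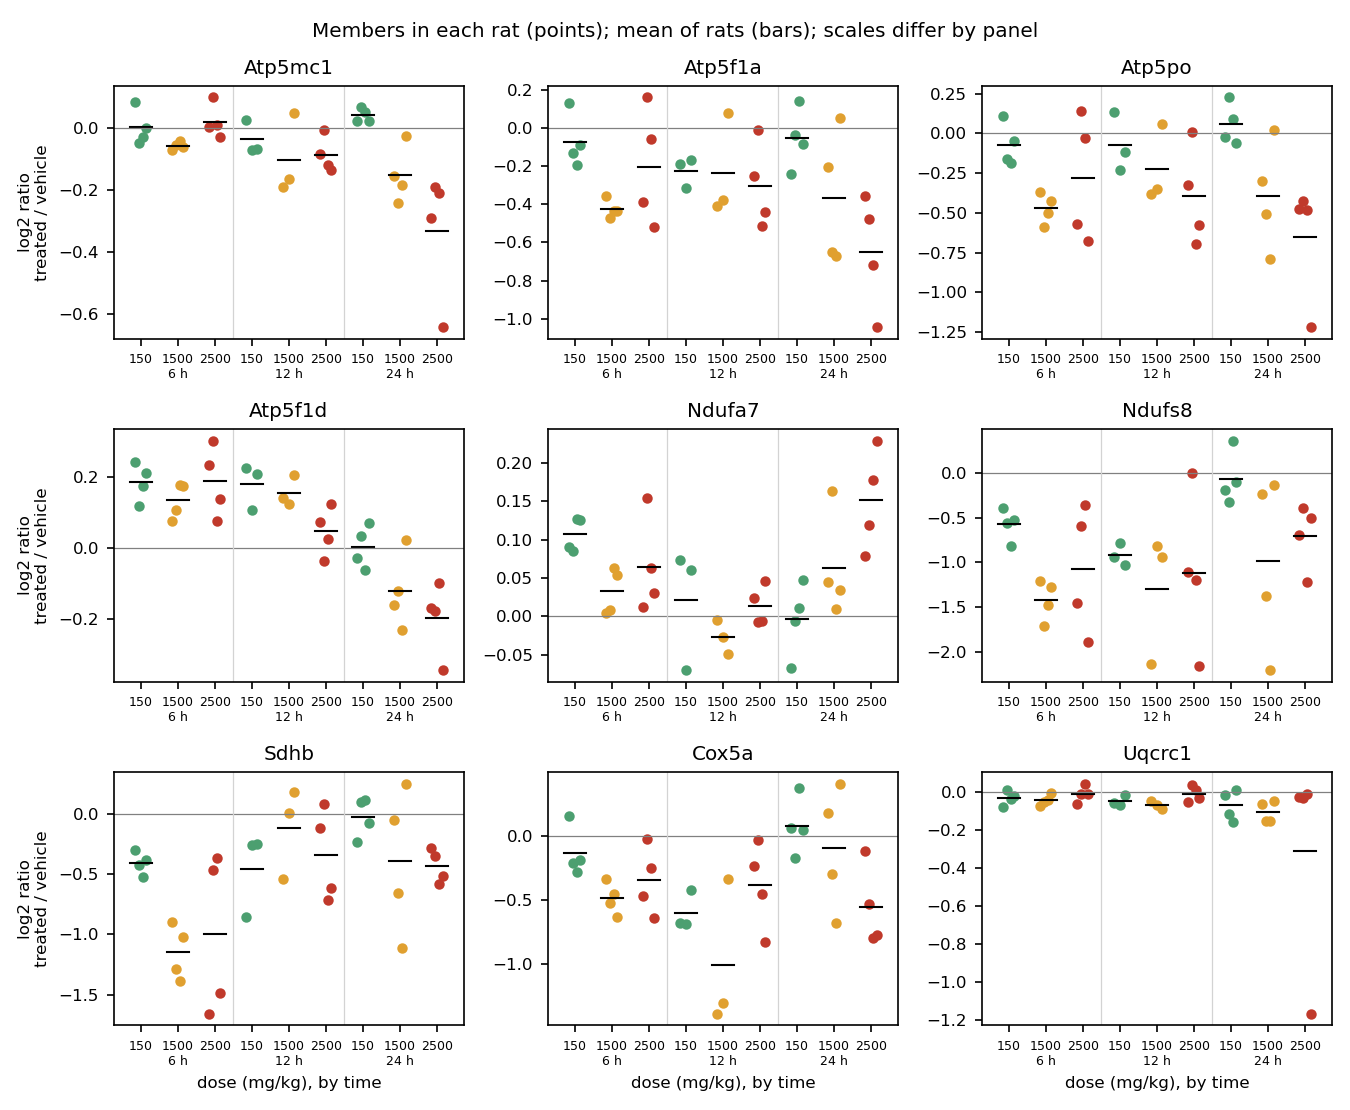
Log2 ratio of 9 members in each rat (points) and the mean over the rats of a group (bars), by dose in mg/kg within 6, 12 and 24 h; the y scales differ between panels. Atp5mc1, Atp5f1a and Atp5po are lowest at 2500 mg/kg and 24 h, Sdhb and Ndufs8 are low at 6 h, Atp5f1d is above 0 at 6 h and below 0 at 24 h after 2500 mg/kg, and the mean of Uqcrc1 there rests on 1 rat at -1.16.

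At 6 h after 1500 mg/kg, 22 members fell and 1 rose, 37.3% falling against 9.24% of all genes; over all genes 12.7% passed in either direction and 3.48% rose. The largest shift was in complex II, whose median was -0.70, with 3 of 4 members falling. Complex V followed with 9 of 15 falling and 1 rising (median -0.30), then complex I with 6 of 19 (-0.18). Complex III had 1 of 8 falling (-0.17) and complex IV 3 of 13 (0.013). In every one of the 22 members that fell, all 4 rats were below 0, and 72.9% of all members had all 4 rats below 0 against 29.7% of all genes.

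Sdhb read -1.28, -1.38, -0.90 and -1.02 in rats 3591, 3592, 3593 and 3594, a mean of -1.15 ± 0.22 (adjusted p = 1.63e-04, limma). Sdha and Sdhd fell to -0.76 ± 0.090 and -0.63 ± 0.16. Sdhc, the other membrane anchor, read -0.069, -0.086, -0.10 and -0.058 and did not pass. The rats at 150 mg/kg and 6 h read -0.43, -0.30, -0.52 and -0.38 for Sdhb, all above those at 1500 mg/kg, although this difference did not pass in the test between the doses.

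Of the ATP synthase genes, Atp5f1c read -1.09, -0.99, -0.90 and -0.97, a mean of -0.99 ± 0.080 (adjusted p = 1.04e-04, limma). Both of its probes fell alike, to -1.04 and -0.94. Atp5f1e stood at -1.05 ± 0.16 and Atp5pf at -0.53 ± 0.050, the latter with -0.59, -0.55, -0.49 and -0.49 in the 4 rats (adjusted p = 3.26e-04, limma). Atp5f1a, Atp5po, Atp5mc2, Atp5mc3, Atp5me and Atp5pb also fell, to between -0.67 and -0.20. Atp5mc1, the member with the smallest adjusted p at 24 h after 2500 mg/kg, read -0.056, -0.043, -0.071 and -0.063 here and did not pass.

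The iron-sulfur core subunit Ndufs8 had the lowest mean of any member in any group, -1.42 ± 0.23, from -1.71, -1.48, -1.20 and -1.28 (adjusted p = 0.00116, limma). Ndufa6, Ndufa8, Ndufa9, Ndufv2 and Ndufb5 also fell, the first 4 to between -0.68 and -0.41 and Ndufb5 to -0.091 ± 0.023, the smallest change that passed here. In complex III Uqcrc2 fell to -0.44 ± 0.060, with probe means of -0.11 and -0.76. In complex IV the members that fell were Cox5a at -0.49 ± 0.13, Cox5b at -0.65 ± 0.13 and Cox8a at -0.54 ± 0.13. The other 10 complex IV members lay between -0.35 and 0.25.

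The count at 1500 mg/kg and 6 h was 10 of 59 without rat 3591 and 12 without rat 3592 or rat 3594. With standard errors widened for a control pool of 4 animals it was 6, and for a single control animal 0.

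At 6 h after 2500 mg/kg, 8 members fell and 1 rose, against 7.72% of all genes passing. Sdhb read -0.37, -0.47, -1.49 and -1.65 in rats 3595, 3596, 3597 and 3598, a mean of -0.99 ± 0.67 (adjusted p = 0.00102, limma). Ndufa9 read -0.50, -0.20, -0.69 and -0.71, a mean of -0.53 ± 0.24 (adjusted p = 0.00176, limma). Atp5f1c read -0.54, -0.26, -1.27 and -0.95, a mean of -0.76 ± 0.44 (adjusted p = 0.00225, limma). Rats 3597 and 3598 were the lower pair in each of these genes.

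The same split ran through the members as a whole. Their median was -0.29 in rat 3597 and -0.22 in rat 3598, but -0.023 in rat 3595 and 0.040 in rat 3596, while the 4 rats at 1500 mg/kg lay between -0.21 and -0.15. The mean over the rats was lowest at 1500 mg/kg in 45 of the 59 members at 6 h, which was not counted over all genes. The difference between 2500 and 1500 mg/kg passed in no member and in 0% of all genes. Ndufs8, Cox5b, Cox8a, Atp5f1e and Atp5pf completed the members that fell, at -1.08, -0.48, -0.43, -0.70 and -0.44. Leaving out rat 3597 gave a count of 3, rat 3598 of 5 and rat 3596 of 15, and widening the errors for the control gave 0.

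After 150 mg/kg no member fell at any time. At 6 h 3 members rose, against 2% of all genes passing. Ndufa7 read 0.085, 0.091, 0.13 and 0.13, a mean of 0.11 ± 0.022 (adjusted p = 0.0447, limma). Ndufa4, placed in complex I by its symbol but now counted as a subunit of complex IV, read 1.86, 1.07, 1.19 and 0.70, a mean of 1.21 ± 0.48 (adjusted p = 0.0498, limma). This last value rested on 1 dye orientation, with a mean of 2.41 on the arrays with the treated rat on Cy5 and 0 on the others. Of the gene's 68 array values, 34 were exactly 0. None of the 3 passed with errors widened for the control.

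Atp5f1d was the member that changed in both directions. At 6 h it rose after all 3 doses, with 0.12, 0.24, 0.17 and 0.21 at 150 mg/kg, 0.11, 0.18, 0.077 and 0.18 at 1500 mg/kg and 0.076, 0.30, 0.14 and 0.24 at 2500 mg/kg. The means were 0.19 ± 0.053, 0.13 ± 0.050 and 0.19 ± 0.10 (adjusted p = 0.0119, 0.0237 and 0.00305, limma). All 12 rats were above 0, the doses overlapped, and the 3 groups share 1 control sample. At 12 h it read 0.21, 0.23 and 0.11 after 150 mg/kg and rose to 0.18 ± 0.063 (adjusted p = 0.0435, limma), the only member to pass there (1.89% of all genes), and after 1500 mg/kg to 0.16 ± 0.044. At 24 h it stood at 0.0045 ± 0.060, -0.12 ± 0.11 and -0.20 ± 0.10 in order of dose, the last of which fell.

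At 12 h after 1500 mg/kg, 4 members fell and Atp5f1d rose, against 4.84% of all genes passing. The mean was below 0 in 53 of the 59 members (89.8%), against 50.6% of all genes. Medians were -0.12 in complex I, -0.13 in II, -0.059 in III, -0.16 in IV and -0.17 in V. Cox5a read -1.30, -0.34 and -1.39 in rats 4132, 4133 and 4134, a mean of -1.01 ± 0.58 (adjusted p = 0.00152, limma). Atp5me read -1.29, -0.32 and -0.93, a mean of -0.85 ± 0.49 (adjusted p = 0.0215, limma). Ndufs8 read -0.82, -0.93 and -2.14, a mean of -1.30 ± 0.73 (adjusted p = 0.0239, limma). All 3 rats were below 0 in each and 1 rat of the 3 lay well apart, rat 4133 in Cox5a and Atp5me and rat 4134 in Ndufs8. The dye orientations differed in size. With the treated rat on Cy5 Ndufs8 had a mean of -0.070 and Atp5me -0.29, against -2.53 and -1.40 with it on Cy3. Cox5a had -1.13 and -0.89. Sdhc fell to -0.13 ± 0.046. The count was 1 without rat 4132 or rat 4134 and 3 without rat 4133, and 0 with errors widened for the control.

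At 12 h after 2500 mg/kg only Ndufs8 and Atp5me fell, against 1.39% of all genes passing. Ndufs8 read -2.16, -1.11, 0.00050 and -1.20 in rats 4135 to 4138, a mean of -1.12 ± 0.88 (adjusted p = 0.0475, limma). Atp5me read -1.53, -0.39, -0.030 and -0.88, a mean of -0.71 ± 0.65 (adjusted p = 0.0478, limma). The third value in each is rat 4137, whose members had a median of -0.0075. Without this rat Ndufs8 had -1.49 ± 0.58 and Atp5me -0.94 ± 0.57, the median member went from -0.16 to -0.21, and 10 members passed. In Ndufs8 the dye orientations differed in sign, with 0.30 on the arrays with the treated rat on Cy5 and -2.54 on the others. Atp5me had -0.063 and -1.35 in the same order. For the group as a whole, the count ran from 0 to 14 over the alternative settings. The complex V median over members was -0.20, and 49 of 59 members had means below 0 against 44.2% of all genes.

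At 24 h after 1500 mg/kg 6 members fell, against 8.08% of all genes passing, and none rose. They were Atp5mc2, Uqcrc2, Ndufs8, Atp5f1a, Atp5mc1 and Ndufv3. Atp5mc2 read -0.32, -0.24, -0.12 and -0.26 in rats 3623 to 3626, a mean of -0.23 ± 0.084 (adjusted p = 0.0138, limma). Uqcrc2 read -0.50, -0.61, 0.050 and -0.27, a mean of -0.33 ± 0.29 (adjusted p = 0.0234, limma). Ndufs8 read -1.38, -2.20, -0.14 and -0.23, a mean of -0.99 ± 0.99 (adjusted p = 0.0301, limma).

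Rats 3623 and 3624 were the lower pair in Uqcrc2 and Ndufs8, and the members as a whole had medians of -0.17 and -0.31 in them, against 0.031 and -0.054 in rats 3625 and 3626. The count ran from 0 without rat 3623 or rat 3624 to 18 without rat 3625, and was 2 without rat 3626 and 14 without rat 3631 of the 2500 mg/kg group, which shares the estimate of the spread. It was 0 with errors widened for the control. In Atp5mc2, Ndufs8 and Ndufv3 the 2 dye orientations differed in sign. Ndufs8 had a mean of 0.052 with the treated rat on Cy5 and -2.03 with it on Cy3.

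**Figure D4:**
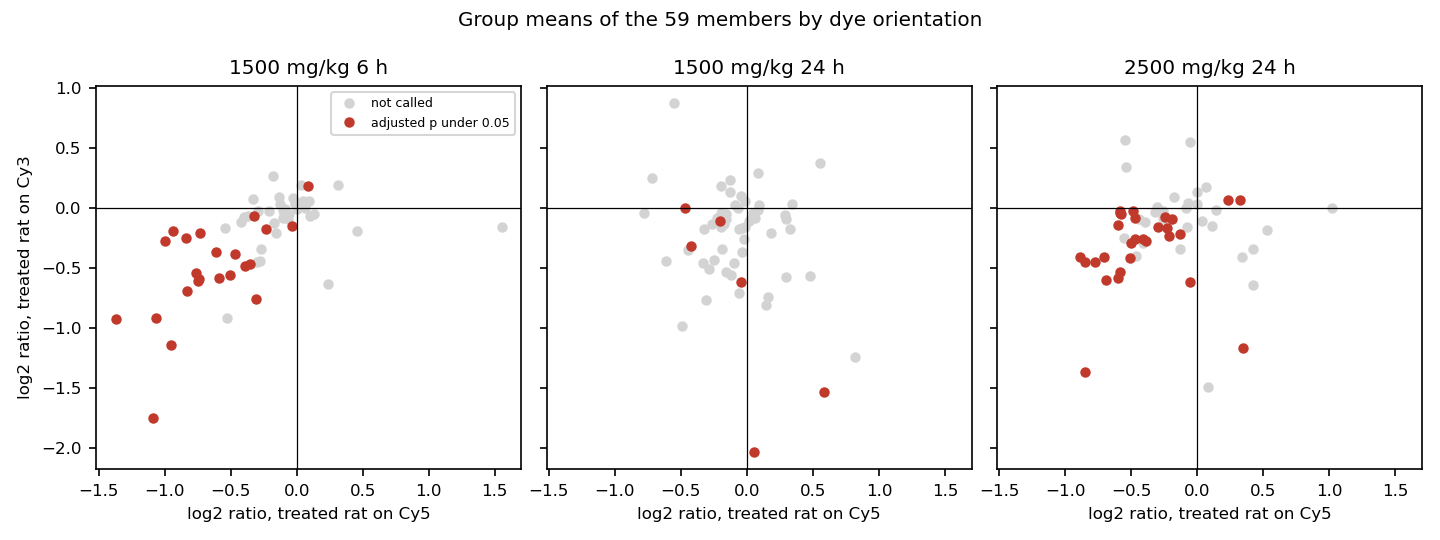
Group mean log2 ratio of the 59 members on the arrays with the treated rat on Cy5 (x axis) and on Cy3 (y axis), in 3 groups; red points passed at an adjusted p under 0.05. At 1500 mg/kg and 6 h all 23 red points have the same sign in both orientations, at 2500 mg/kg and 24 h 28 of 29, and at 1500 mg/kg and 24 h 3 of 6.

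No member passed at 24 h after 150 mg/kg, and 0% of all genes did; by unadjusted p under 0.05 in limma the members' count was also 0. The means lay between -0.24 and 0.30. Between doses at 24 h the control cancels. From 150 to 2500 mg/kg 7 members fell and 1 rose, against 7.65% of all genes passing. Atp5mc1 differed by -0.37 ± 0.068 (adjusted p = 8.59e-04, limma), Atp5po by -0.71 ± 0.19 (adjusted p = 0.0206, limma) and Ndufa7 by 0.15 ± 0.040 (adjusted p = 0.0176, limma), each with its standard error. Atp5f1a, Atp5f1d, Atp5mc2, Cox8a and Ndufv1 were the others that fell, by 0.59, 0.20, 0.28, 0.44 and 0.16 on the log2 scale. Of the 7, 5 are genes of ATP synthase. The count was 4 without any 1 of rats 3617, 3619, 3620 and 3631, and 2 without rat 3618.

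No member passed between 1500 and 150 mg/kg at 24 h (2.14% of all genes) or between 2500 and 1500 mg/kg (0%), where by unadjusted p under 0.05 in limma 9 and 7 members would. Between 1500 and 150 mg/kg, leaving out rat 3631 gave 3 members, rat 3625 gave 2 and rat 3596 gave 1; between 2500 and 1500 mg/kg, leaving out rat 3628 gave 1. At 6 h none passed between 2500 and 150 mg/kg (0.145% of all genes) or between 1500 and 150 mg/kg (0.0414%), with 4 and 12 by unadjusted p, and none did between 2500 and 1500 mg/kg, with 0. In the 3 pairs of doses at 12 h no member and 0% of all genes passed, and the unadjusted counts were 5, 0 and 3 for 2500 over 150, 1500 over 150 and 2500 over 1500 mg/kg. The means ran downward with dose in 31 of 59 members at 24 h, in 28 at 12 h and in 3 at 6 h. This order was not counted over all genes, so it cannot be read as particular to the members.

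The difference between 2500 and 150 mg/kg changed from 6 to 24 h in 1 member, Atp5mc1, against 1.89% of all genes. It went from 0.018 at 6 h to -0.37 at 24 h, a change of -0.39 with a standard error of 0.096 (adjusted p = 0.0276, limma). Without rat 3587, 3589 or 3618 it did not pass, and without rat 3623 or 3628 2 members did. From 12 to 24 h no member's change passed, against 0.311% of all genes, with 6 by unadjusted p under 0.05 in limma.

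The groups at 1500 mg/kg and 6 h and at 2500 mg/kg and 24 h had the most members that passed. They share neither rats nor control, but the same estimate of each gene's spread enters both tests, so the calls are not independent. In both of them 13 members fell, which is 59.1% of the 22 that fell at 6 h and 48.1% of the 27 at 24 h. They were Atp5f1a, Atp5f1c, Atp5f1e, Atp5mc2, Atp5pf and Atp5po of ATP synthase, Cox5a, Cox5b and Cox8a of complex IV, Ndufa8 and Ndufa9 of complex I, Sdha and Uqcrc2. Over all genes 502 fell in both, 56.3% of those at 6 h and 33.3% of those at 24 h. The group means of the members correlated at r = 0.75 between the groups, and those of all genes at 0.54, across genes, which are not independent replicates.

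**Figure D5:**
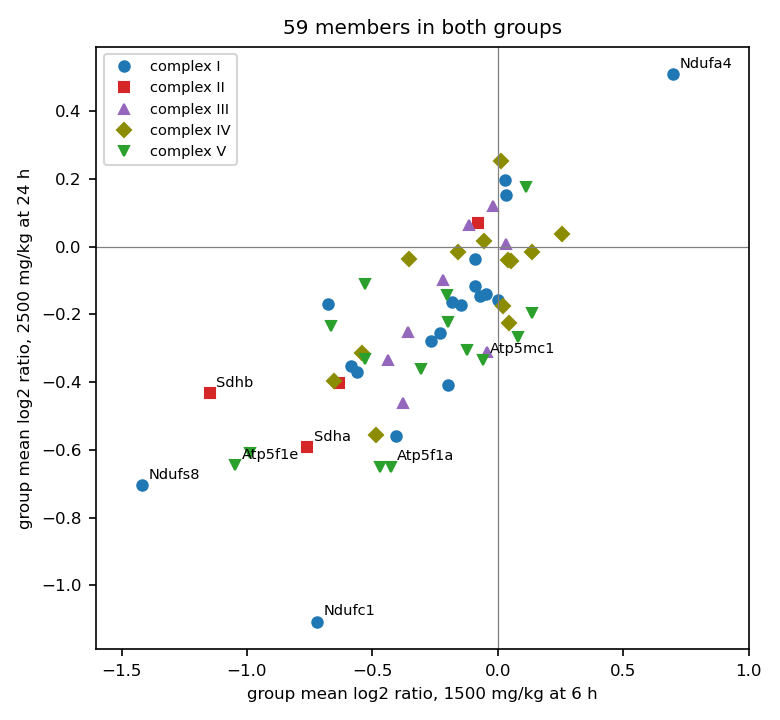
Group mean log2 ratio of each of the 59 members at 1500 mg/kg and 6 h (x axis) and at 2500 mg/kg and 24 h (y axis), with the complexes by symbol and colour. Most points lie below 0 in both; Sdhb and Ndufs8 are lower at 6 h, Ndufc1 is lower at 24 h, and Ndufa4 stands alone at upper right.

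The members differed widely in how far they moved over the 34 rats. The SD over rats was 0.25 for the median member and 0.16 for the median of all genes. It was smallest in Ndufb5 (0.044, rats from -0.12 to 0.055), Cox6b2 (0.063), Ndufa7 (0.070), Ndufv1 (0.076) and Sdhc (0.078). It was largest in Ndufa4 (0.81), Ndufc1 (0.70), Ndufs8 (0.65, rats from -2.20 to 0.36), Sdhb (0.49) and Atp5f1e (0.48). Ndufs8 had a mean below 0 in all 9 groups and fell in 5, and its mean log2 ratio of Cy5 over Cy3 over all arrays, whichever sample was on which dye, was 0.87. In 13 members the mean was below 0 in all 9 groups, and 19 members passed in none. Neither count was made over all genes.

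None of the isoforms best known from other tissues fell at 2500 mg/kg and 24 h, and Ndufa4l2 was the 1 of these 5 that rose. Cox4i2 of lung read between -0.37 and 0.11 and did not pass, beside Cox4i1, the common isoform, which fell. Cox8b of heart and muscle, with a group mean of -0.18 ± 0.46, did not pass, beside Cox8a, which fell. Cox4i1 and Cox8a no longer passed without rat 3631, and differences between isoforms were not tested. Cox6a2 of heart and muscle and Cox6b2 of testis had means of -0.016 ± 0.17 and -0.042 ± 0.13. In all 4 of these isoforms rat 3631 was the lowest, and without it the means of Cox4i2, Cox8b, Cox6a2 and Cox6b2 turned to 0.070 ± 0.045, 0.052 ± 0.042, 0.069 ± 0.052 and 0.020 ± 0.040.

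Genes of mitochondria outside the complexes were called at varying shares at 2500 mg/kg and 24 h, where 15.6% of all genes fell and 10.9% rose. Of 15 inner membrane carriers and porins 7 fell and 1 rose (median -0.15). Vdac3, a porin of the outer membrane, had -0.46 ± 0.15, Slc25a20, the carnitine carrier, -0.64 ± 0.24, and Slc25a5, an ADP/ATP carrier, -0.57 ± 0.27. Of 19 genes of pyruvate dehydrogenase and the TCA cycle 3 fell, Suclg1 at -0.86 ± 0.27, Mdh2 at -0.46 ± 0.14 and Dlst at -0.42 ± 0.11. In this list 1 gene rose, Ogdh. Of 30 assembly factors 5 fell and 2 rose, of 18 genes for cytochrome c, coenzyme Q and electron entry 2 and 2, and of 15 regulators of mitochondrial biogenesis and DNA 2 and 2. The shares falling in the TCA cycle, assembly factor, cytochrome c, regulator and glycolysis lists were near that of all genes. Tfam, which packages mitochondrial DNA and takes part in its transcription, stood at -0.73 ± 0.13, and Ppargc1b, a coactivator of these genes, at 0.21 ± 0.13. Of 12 mitophagy genes 5 fell and 1 rose, with Bnip3l, a receptor that clears mitochondria from maturing red cells, at -0.91 ± 0.36. Of 20 glycolysis genes 3 fell and 3 rose, and all the genes named here passed.

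At 1500 mg/kg and 6 h Tfam was at -1.52 and Suclg1 at -1.39, and both fell. There, where 9.24% of all genes fell and 3.48% rose, 5 of 15 carriers and porins fell and 0 rose, 5 of 19 genes of the TCA cycle fell and 1 rose, and 3 of 30 assembly factors, a share near that of all genes, fell and 2 rose. Of the 12 mitophagy genes 1 fell, and Bnip3l, at -0.052, did not pass. Of the 18 genes for cytochrome c and coenzyme Q 1 fell, of the 15 regulators 1 fell and 1 rose, and of the 20 glycolysis genes 3 fell and 0 rose.

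Markers of blood cell types were called in the groups where many members fell and also where few did. At 2500 mg/kg and 24 h, against 15.6% of all genes falling and 10.9% rising, 10 of 15 T cell markers fell, with rat medians from -0.73 to -0.36, and Cd5 stood at -1.35 ± 0.34. Of 6 B cell markers 4 fell (rat medians from -0.51 to 0.10), and of 10 NK cell markers 1 fell. Of 20 erythroid markers 10 fell and 2 rose (rat medians from -0.42 to -0.11), with Bpgm, a red cell enzyme, at -1.62 ± 0.31. Of 8 platelet markers 5 fell (rat medians from -0.87 to -0.28). Of 11 neutrophil markers 6 rose and 0 fell (rat medians from 0.55 to 1.82), with S100a8 at 2.90 ± 0.89, and of 13 monocyte markers 3 rose and 3 fell. The medians of the T cell, erythroid and neutrophil lists were -0.43, -0.25 and 1.28. Cd5, Bpgm and S100a8 thus lay far from the middle of their lists. At 1500 mg/kg and 6 h, 7 T cell and 4 B cell markers fell, 5 neutrophil markers rose, and 0 erythroid markers passed, with rat medians of the erythroid list from -0.11 to 0.022. At 1500 mg/kg and 24 h, where 6 members and 5.74% of all genes fell, 8 T cell, 4 B cell and 11 erythroid markers fell and 6 neutrophil markers rose, while 0 platelet markers passed. At 12 h 5 T cell and 5 platelet markers fell at 1500 mg/kg (3.36% of all genes), and 6 T cell and 0 platelet markers at 2500 mg/kg (1.29%). At 2500 mg/kg and 6 h 4 T cell and 4 B cell markers fell (5.18%). At 150 mg/kg and 24 h 0% of all genes passed, so no marker and no member could be among them. The part of these shifts in the values of the members was not tested.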

How the data were processed

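Gene expression in rat blood was measured on 68 dual-colour arrays. The values deposited by the authors are log10 ratios of both dyes, limited to between -2 and 2, for 22075 probes. Their medians lie between -0.00352 and 0, exact zeros make up 2.76% and values at the limits 0.493%. Background correction and normalization are not given in the sources used here. The labels give each sample's dye, group and rat number.

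Here each array was turned by dye, its log10 ratio multiplied by 3.32 to give log2, and the 2 arrays of a rat were averaged. Of 12750 probes with 1 gene symbol in the platform annotation, 12720 matched a current symbol in the GRCr8 gene table. Probes of a gene were averaged, which gave 9653 genes. limma 3.58.1 (R 4.3.3) was fitted to all 34 rats with 9 group means and 20 contrasts, and p-values were adjusted by Benjamini-Hochberg over all genes within each contrast. They measure the spread between treated rats only, with 25 residual degrees of freedom. The fit was tested on simulated data.

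Values in every rat were given for the members with the smallest adjusted p in each complex at 24 h after 2500 mg/kg and in the other comparisons, and for members that rose there. Other genes came from lists, up to 4 a list by adjusted p. The members and lists were chosen with earlier results of these data known. Alternatives varied the rats fitted, array scaling, the control's spread, zero and limit values, probe averaging, symbols and single arrays, and left out each rat in turn.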

Additional observations from a re-analysis of the deposited data

Results flagged for a closer look

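Of 70 groups of 4 rats examined for a rat far from the others, 4 held one, and chance marks about 1 in 20 such groups. At 24 h after 2500 mg/kg the median of complex III was -0.6116 in rat 3631 and between -0.0898 and -0.0195 in the other 3 rats. The median of complex IV was -0.4751 in the same rat and between -0.0134 and 0.0766 in the others. Uqcrc1 read -1.1638 in it and between -0.0333 and -0.0111 in the others. The array of rat 3631 with the treated sample on Cy5 correlated at -0.24 with the other arrays, and its part in these values was not tested beyond the values given with its other array alone.

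At 6 h after 1500 mg/kg the median of complex IV was -0.0979 in rat 3591 and between 0.0025 and 0.0064 in the others. The difference of Atp5mc1 between 2500 and 150 mg/kg changed by -0.3917 from 6 to 24 h, which passed limma's test of that change.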

How the results depend on the processing

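Counts are of the 59 members that passed, and shares of all genes under each alternative are not given. No member that passed turned its direction under any alternative, but without rat 3631 the mean at 24 h after 2500 mg/kg turned sign in 13 members that had not passed, and so did the complex IV median (from -0.039 to 0.061). The counts were recomputed together with the medians over all members at 24 h after 1500 and 2500 mg/kg. Of these values, 801 stayed near the reported value and 146 moved further. Near was within 1.5 times for a count, and within the SD of the rat medians of the group for a median. With only the rats of the time concerned, 5 members passed at 150 mg/kg and 18 at 2500 mg/kg at 6 h, 0, 0 and 0 at 150, 1500 and 2500 mg/kg at 12 h, 1 at 1500 mg/kg and 7 at 2500 mg/kg at 24 h, 1 between 2500 and 150 mg/kg at 24 h, and 0 in the change from 6 to 24 h. With arrays scaled to the same spread, 5, 39 and 28 passed at 6 h and 3, 3 and 0 at 12 h in order of dose, 6 between 1500 and 150 mg/kg at 6 h, and 3 between 2500 and 150 mg/kg at 24 h. With errors widened for control pools, 0, 6 and 0 passed at 6 h, 0, 0 and 0 at 12 h, and 0 at 1500 mg/kg and 8 at 2500 mg/kg at 24 h. With errors widened for single control animals at 6 and 12 h, all 6 counts there were 0. With single arrays, a dye term and the rat as a block, 15 passed at 2500 mg/kg and 6 h, 3, 9 and 14 at 12 h, 20 at 1500 mg/kg and 24 h, 4 between 1500 and 150 mg/kg at 6 h, 19 between 2500 and 150 mg/kg and 3 between 1500 and 150 mg/kg at 24 h, 2 in the change from 6 to 24 h and 1 in that from 12 h. In that fit the estimated correlation between a rat's arrays was -0.0156, so that its 2 arrays counted as nearly independent samples and the p-values are too small. The cause of these moves was not tested, except that fewer rats enter the first and the errors are larger by construction in the widened fits.

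Another 3 alternatives were chosen after seeing the data. With the mean dye profile removed, 1 member passed between 1500 and 150 mg/kg at 24 h. With rat 3631 by its other array alone, 12 passed at 1500 mg/kg and 17 at 2500 mg/kg at 24 h, 5 between 2500 and 150 mg/kg and 3 between 1500 and 150 mg/kg. With the same sign required in both dye orientations, 1 was counted at 2500 mg/kg and 12 h and 3 at 1500 mg/kg and 24 h.

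Leaving out each rat in turn gave 0 to 4, 10 to 31 and 3 to 15 members at 6 h in order of dose, 0 to 3, 1 to 6 and 0 to 10 at 12 h, and 0 to 18 at 1500 mg/kg and 16 to 31 at 2500 mg/kg at 24 h. It gave 2 to 10 between 2500 and 150 mg/kg, 0 to 3 between 1500 and 150 mg/kg and 0 to 1 between 2500 and 1500 mg/kg at 24 h, and 0 to 2 in the change from 6 to 24 h. No paired analysis was possible because every rat has its own number and no number recurs between groups.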
